A study of Mus musculus with 16 samples.

Results

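Translational efficiency (TE) was compared between Nat1+/- and wild-type (WT) mouse embryonic stem cells for 12933 of the 21977 genes in the deposited table. A gene entered when its mean was at least 10 normalised reads over the 8 footprint libraries and over the 8 total RNA libraries; 9044 genes fell below that in either assay. Ribosome-protected fragments (RPF, the mRNA pieces shielded by translating ribosomes, called footprints here) and total RNA were sequenced from each culture with a commercial ribosome profiling kit. TE of a gene in a culture was log2((RPF + 1)/(Total + 1)), so a value of 0 means equal normalised reads in both libraries of that culture, and it is a relative and not an absolute rate. The groups were 3 Nat1+/- cultures, named A7, B4 and C1 (replicates 1, 2 and 3), and 2 WT cultures of the RF8 line, named WTex1 and WTex2 (replicates 1 and 2). All were grown with the cytokine LIF on gelatin, and 3 Nat1-/- cultures grown alike (B12, B2 and C3) entered the fits only to share the estimate of spread. A7, B4 and C1 are labelled as separate lines and both WT cultures as RF8, so the WT spread covers culture and handling but no difference between lines, and nothing in the labels says how the allele was disrupted.

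Eif4g2, whose product is called Nat1, DAP5 or p97, encodes a shortened cousin of eIF4G, the scaffold of translation initiation. It binds the helicase eIF4A and the factor eIF3 but lacks the site for the cap-binding protein eIF4E, and is known for initiation on mRNAs that depend less on the usual cap complex. Messengers of ribosomal proteins and elongation factors begin at the cap with an unbroken run of C and T, the terminal oligopyrimidine (TOP) tract, through which growth signalling by mTOR and the binding protein LARP1 set their translation together. Ferritin mRNAs carry a hairpin near the cap, the iron-responsive element, on which iron regulatory proteins sit and block initiation when iron is scarce.

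Sequencing gave 17.8 to 18.9 M footprint reads (mega-reads) in Nat1+/- cultures and 20.04 to 23.8 M in WT. In total RNA it gave 13.2 to 14.8 M reads in Nat1+/- cultures and 33.6 to 42.6 M in WT, so library depth and genotype cannot be told apart in total RNA. Summed footprints of 7 stem cell markers were 92835 to 110110 normalised reads in Nat1+/- cultures and 72641 to 91402 in WT. Among them Pou5f1 went the other way, with 14984, 11136 and 14961 reads against 17038 and 16894 in WT. Zfp42 overlapped, with 25582, 32533 and 33409 reads in Nat1+/- cultures against 28730 and 40143 in WT. Sums for 4 other cell types were lower in Nat1+/- cultures than in WT: 1318 to 4043 against 6164 to 14278 for 12 fibroblast markers, 309 to 1318 against 8016 to 9609 for 5 contractile markers, 938 to 3680 against 9133 to 11026 for 6 trophoblast markers, and 1997 to 3617 against 7403 to 8318 for 5 neuroectoderm markers. B4 was the highest of the Nat1+/- cultures in each of these 4 sums, and blood markers were at or near 0 throughout. Not every marker followed its sum. Footprints were higher in all Nat1+/- cultures for Thy1 (259, 328 and 219 against 162 and 121 in WT). The same held for Pdgfrb (228, 219 and 188 against 113 and 165) and Eomes (102, 96.2 and 124 against 83.1 and 83.3). Sox1 had 22.8, 19.2 and 40.9 against 14.8 and 5.81. In WT the largest members were Col1a1 and Thbs1, Krt8 and Krt18, and Nes and Tubb3. Nearly all of the WT trophoblast sum was Krt8 (4308 and 4322 reads) and Krt18 (4679 and 6227), while Cdx2 had 21.0 and 40.7. The sum of 7 primitive endoderm markers overlapped and had its highest value in Nat1+/-, with 5288, 6070 and 8074 reads in Nat1+/- cultures and 4038 and 5534 in WT. Nearly all of that sum was Lamb1, with 5174, 5869 and 7842 reads against 3852 and 5322. Fewer cells of a type and less RNA per cell cannot be told apart in such bulk samples.

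Across all genes the median TE difference, Nat1+/- minus WT, was 0.02 on the log2 scale with an SD over genes of 0.37. A log2 difference of at least 1 was reached by 112 genes upward and 129 downward. The SD over genes of the difference between single cultures was 0.36 to 0.40 for the 3 pairs within Nat1+/- and 0.38 within WT, against 0.40 to 0.54 for the 6 pairs across genotypes. The pair of B4 and WTex2 lay within the range of the pairs of 1 genotype, and the other 5 lay above it.

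Under limma, the test chosen for these normalised values, 0 of 12933 genes passed a Benjamini-Hochberg adjusted p of 0.05 (0% called, smallest adjusted p = 0.125). At an unadjusted p under 0.05 there were 1441 genes higher in Nat1+/- cultures (11.1%) and 1067 lower (8.25%). On whole reads recovered from the table, edgeR with a term for culture called 338 genes, 199 with higher TE (1.54% of genes tested) and 139 with lower TE (1.07%). Letting the limma variance follow abundance called 146 (0.696% of genes tested higher and 0.433% lower), all among those 338. DESeq2 without the culture term gave an adjusted p to only 4157 genes and called 11 of them, 5 higher and 6 lower. edgeR without the culture term called 0 (384 higher and 305 lower at an unadjusted p under 0.05), so each statement that a gene passed edgeR rests on the fit with that term. The edgeR count turned on single cultures: it was 0 without A7, without B4, without C1 or without the Nat1-/- culture B2, and 3 without WTex1. Without WTex2 there were 244, and 1325 and 1129 without B12 and without C3. TE values of the 3 Nat1+/- and 2 WT cultures did not overlap for 24.5% of genes in the higher direction and 19.3% in the lower. In the highest of 5 classes by total RNA level these shares were 28.4% and 27.6%. Shares in lists of abundant genes thus stand less far from those of genes of like level. Below, a gene is said to pass edgeR only in the fit with all cultures, and no gene named here passed limma for TE.

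Both parts of the ratio had called changes in limma: footprints rose for 713 genes (5.51%) and fell for 672 (5.2%), and total RNA rose for 653 (5.05%) and fell for 749 (5.79%). With libraries scaled to equal sums, total RNA rose for 463 and fell for 1143. These calls, too, rested on both WT cultures, with 0 footprint calls without WTex1 and 23 without WTex2, and 0 and 16 for total RNA. Footprint calls numbered 84 without A7, 407 without C1, 508 without B2, 2520 without B12 and 2664 without C3, and total RNA calls 187, 627, 672, 2327 and 2818 in the same order. Of the 199 genes with higher TE in edgeR, footprints rose alone in 38, total RNA fell alone in 40, and neither passed in 109. Of the 139 with lower TE, footprints fell alone in 44, total RNA rose alone in 12, and neither passed in 81. The plot of footprint against RNA differences shows both groups as bands on either side of the diagonal.

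**Figure D1:**
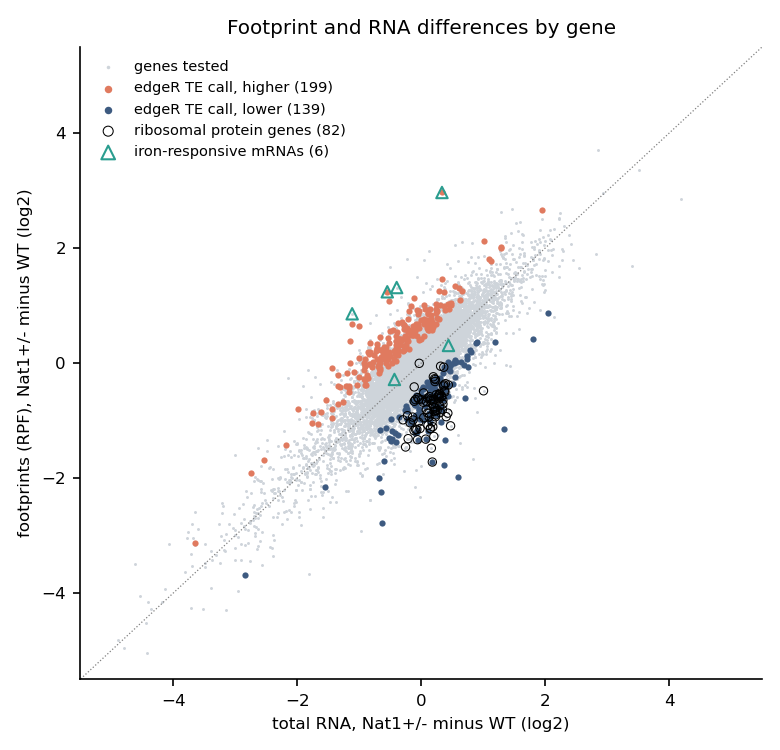
Footprint difference (vertical, log2, Nat1+/- minus WT) against total RNA difference (horizontal, same scale) for the 12933 genes tested; the dotted diagonal is an equal change in both, and 2 genes lie outside the axes. The 199 genes with higher TE in edgeR lie above the diagonal and the 139 with lower TE below it; open circles mark 82 ribosomal protein genes, nearly all below the diagonal, and triangles 6 iron-responsive mRNAs.

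The targeted gene, Eif4g2, had 10261, 7608 and 7275 normalised footprint reads in A7, B4 and C1, against 17666 and 13862 in WTex1 and WTex2. Its total RNA was 15335, 12092 and 10674 in Nat1+/- cultures and 47932 and 26985 in WT. Both fell, footprints by 0.92 (limma adjusted p = 0.0234) and total RNA by 1.52 (adjusted p = 0.0274) on the log2 scale, and neither set of values overlapped. Nat1-/- cultures (B12, B2 and C3) had 1089, 1114 and 922 footprint reads of Eif4g2. Their total RNA of the gene, 12249, 8795 and 5085 reads, overlapped that of Nat1+/- cultures. Reads were not separated by allele. The TE of Eif4g2 was -0.58, -0.67 and -0.55 in Nat1+/- cultures, -3.49, -2.98 and -2.46 in Nat1-/- cultures and -1.44 and -0.96 in WT. The Nat1+/- values thus lay above both WT values, a difference of 0.60 ± 0.29 (log2, SE; limma adjusted p = 0.300; exact permutation p = 0.2, two-sided, the smallest that 3 against 2 allows). It was 0.36 without WTex1 and 0.84 without WTex2.

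Of the gene lists examined, cytosolic ribosomal proteins had the lowest medians of TE difference. Of the 82 genes tested, 81 had a negative TE difference, 79 had Nat1+/- values wholly below WT (19.3% of all genes) and 23 passed edgeR downward (1.07% of all genes). None of the 82 had the groups apart upward, and none passed limma. The median difference was -0.90, against 0.02 over all genes, with -0.96 for 49 large-subunit and -0.86 for 33 small-subunit proteins. The median TE of the 82 was -1.23, -1.11 and -1.05 in the Nat1+/- cultures A7, B4 and C1. It was 0.26, -0.31 and -0.80 in the Nat1-/- cultures B12, B2 and C3, and -0.10 and -0.32 in WTex1 and WTex2. C3, a Nat1-/- culture, lay between WT and Nat1+/- cultures, while B12 lay above WT. As deviations from the mean of all 8 cultures the medians were -0.61, -0.54 and -0.47 in Nat1+/-, 0.83, 0.22 and -0.22 in Nat1-/- and 0.54 and 0.20 in WT. The cultures B12, WTex1 and WTex2 had the deepest total RNA libraries (42.5, 42.6 and 33.6 M reads), and B2 and C3 had 16.4 and 14.2 M. With every library thinned to the shallowest of its assay, the median differences of large- and small-subunit genes were -0.95 and -0.86, against -0.96 and -0.86 unthinned. Thinning draws reads at random, which on average leaves the ratio of well-covered genes as it was. These medians therefore could not show an effect of depth, and differences between libraries that go with depth were not tested.

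**Figure D2:**
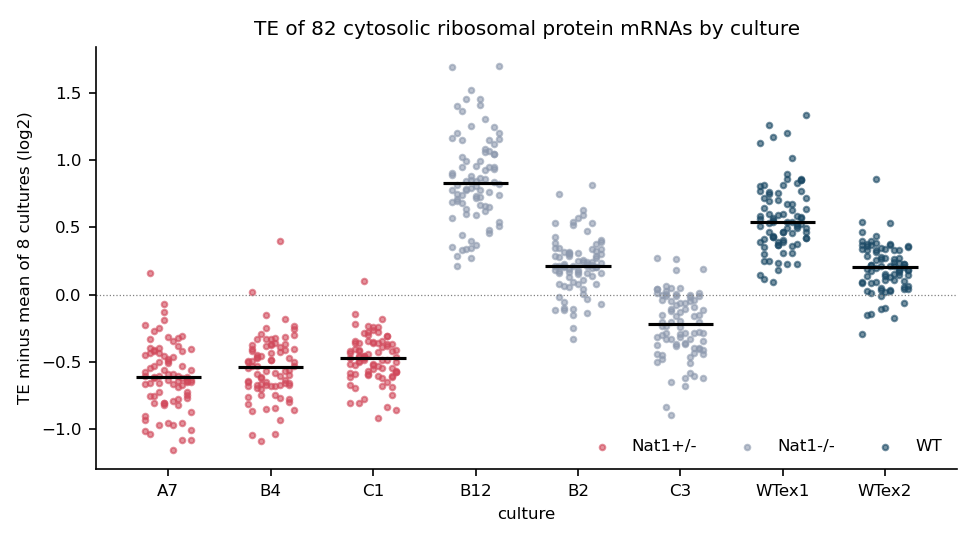
TE of 82 cytosolic ribosomal protein mRNAs in each culture, as the log2 deviation of a gene from its mean over the 8 cultures; each point is a gene and each black bar the median. The 3 Nat1+/- medians lie at -0.61, -0.54 and -0.47, the Nat1-/- medians run between 0.83 and -0.22, and the WT medians lie at 0.54 and 0.20.

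The lower TE of these genes lay on the footprint side. Their median footprint difference was -0.72 and their median total RNA difference 0.19; footprints fell in 11 of 82 (5.2% of all genes) and rose in none, and total RNA passed in none in either direction. Rpl22l1, a paralogue of the large-subunit protein eL22, had 1578, 1554 and 1628 footprint reads in Nat1+/- cultures and 4519 and 3540 in WT. Its total RNA was 4064, 3363 and 3506 against 4139 and 3466, so the libraries differed in footprints and overlapped in RNA. The TE difference of Rpl22l1 was -1.27 ± 0.21 (limma adjusted p = 0.142, edgeR 0.0271). Rps27a, which encodes a small-subunit protein fused to ubiquitin, had a TE of -1.09, -1.02 and -1.09 in Nat1+/- cultures and -0.33 and -0.08 in WT, a difference of -0.86 ± 0.13 (edgeR adjusted p = 0.0271). The stalk protein Rplp1 differed by -0.999 ± 0.19, the large-subunit protein Rpl14 by -0.998 ± 0.17, the small-subunit protein Rps20 by -0.72 ± 0.14 and the laminin-receptor-related protein Rpsa by -0.82 ± 0.17, and all 4 passed edgeR.

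The widest difference among the 82, singled out after its value was seen, was that of Rps23, a protein of the decoding centre. Its footprints fell to 1671, 1694 and 1889 reads in Nat1+/- cultures, against 6125 and 5442 in WT (log2 difference -1.72, limma adjusted p = 0.0444), while its RNA was 9442, 8808 and 9065 against 6768 and 9549. The TE difference was -1.90 ± 0.54. The 3 genes whose groups overlapped were Rpl9, Rpl41 and Rps27l. Rps27l, a p53-induced paralogue of Rps27, was the 1 gene with a positive difference, 0.03 ± 0.16. Many ribosomal protein genes have processed pseudogenes, and how reads that match several places were counted is not stated in the labels, so single values of this family are uncertain.

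Of the 23 ribosomal protein genes that passed edgeR, 18 had a start window at hand: 6 of these held a run of at least 10 C or T beside the annotated start and 12 did not, and 9 held a run of at least 7 and 9 did not. The 6 are shown first, and Rps23 and Rps7, the 2 genes of the 23 with the widest TE differences, after them as windows without such a run. Each line runs over 30 bases, from 10 before the start to 20 from it, in the direction of transcription, from RefSeq on GRCm38.p6. Capitals mark the longest C and T run that touches the 5 bases on either side of the start. Where a gene had several annotated starts, the window with the longest run was taken.
Rpl22l1 (chr3:28805498-28805527, + strand): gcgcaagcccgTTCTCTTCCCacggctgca
Rpl14 (chr9:120571507-120571536, + strand): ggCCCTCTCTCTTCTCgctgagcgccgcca
Rpl15 (chr14:18270967-18270996, - strand): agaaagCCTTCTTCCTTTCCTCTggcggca
Rpl28 (chr7:4792955-4792984, + strand): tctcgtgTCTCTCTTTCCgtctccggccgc
Rpl35a (chr16:33056472-33056501, + strand): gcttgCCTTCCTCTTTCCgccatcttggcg
Rplp2 (chr7:141447641-141447670, + strand): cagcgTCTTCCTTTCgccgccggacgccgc
Rps23 (chr13:90923112-90923141, + strand): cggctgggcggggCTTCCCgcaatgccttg
Rps7 (chr12:28635934-28635963, - strand): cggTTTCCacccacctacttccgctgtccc
The run of 10 in Rpl22l1 and of 14 in Rpl14 accompany TE differences of -1.27 and -0.998, and those of 17 in Rpl15 and 11 in Rpl28 differences of -1.14 and -1.15. The shorter runs of 6 in Rps23 and 5 in Rps7 accompany differences of -1.90 and -1.40. Start windows were at hand for 61 of the 82 ribosomal protein genes (74.4%), which is too few to compare run lengths over the family. Of those 61, 29 held a run of at least 7 (47.5%) and 19 a run of at least 10 (31.1%). Over 10283 tested genes with a window the shares were 17.4% and 7%, and over all 32851 start windows 14.1% and 5.1%. Shares over all windows count every window, and the others only the longest run of a gene, so they are unlike measures. The match describes letters beside an annotated start and not the first base of the mRNAs in these cells.

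Other TOP mRNAs moved on the same side. All 12 tested had Nat1+/- values wholly below WT (19.3% of all genes) and 4 passed edgeR downward (1.07% of all genes), with a median of -0.69. Npm1, a nucleolar chaperone of ribosome assembly, had a TE of -0.66, -0.75 and -0.49 in Nat1+/- cultures and 0.22 and 0.23 in WT. Its footprints fell to 37167, 43367 and 41707 reads, against 81041 and 80245 in WT (log2 difference -0.99, limma adjusted p = 0.0269), with RNA of 58833, 72758 and 58568 against 69773 and 68314. Eef1b2, the exchange factor of elongation factor eEF1A, differed by -1.35 ± 0.36 and Btf3, the beta part of the nascent-chain complex, by -0.80 ± 0.20, both passing edgeR (adjusted p = 0.0421). The elongation factors Eef1a1 and Eef2, named after their values were seen, differed by -0.86 ± 0.29 and -0.63 ± 0.29 and did not pass.

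Initiation factors were lower to a smaller degree. Of 32 eIF1, eIF2, eIF3 and eIF5 factors, 30 had negative differences, 18 had the groups apart downward (56.2%, against 19.3% of all genes) and 3 passed edgeR downward (9.38%, against 1.07%), with a median of -0.21. Eif3a, the scaffold of eIF3, had a TE of 0.14, 0.18 and 0.21 in Nat1+/- cultures and 0.70 and 0.77 in WT. The difference of -0.56 ± 0.09 (edgeR adjusted p = 0.0386) came with higher RNA, 26571, 31245 and 25136 reads against 14074 and 17960, which rose by 0.79 (limma adjusted p = 0.0236), and with overlapping footprints. The eIF3 subunit Eif3h differed by -0.67 ± 0.16 and the scanning factor Eif1ax by -0.53 ± 0.13. Among 19 eIF4G relatives and cap-binding partners 5 had the groups apart upward (26.3%, near the 24.5% of all genes) and 8 downward (42.1%, against 19.3%). Their median of -0.12 turned to 0.04 without WTex2 and was -0.03 without WTex1 or without A7. Eif4b, the activator of the helicase eIF4A, passed edgeR at -0.60 ± 0.15 (adjusted p = 0.0421), the cap-binding proteins Eif4e2 and Eif4e differed by -0.36 ± 0.11 and -0.33 ± 0.11 without passing, and the eIF4G paralogue Eif4g1, shown for its kinship with Eif4g2, by 0.13 ± 0.10.

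Iron-responsive mRNAs stood on the opposite side. Of the 6 examined, 5 had Nat1+/- values wholly above WT (24.5% of all genes), 2 passed edgeR upward (1.54% of all genes) and the median difference was 1.75. Both parts of the ratio entered, with median differences of 1.05 in footprints and -0.41 in total RNA. Total RNA passed limma in none of the 6. Ftl1, the ferritin light chain, had a TE of -1.82, -2.93 and -2.74 in Nat1+/- cultures, -4.51, -4.14 and -2.24 in Nat1-/- cultures and -5.32 and -4.94 in WT. Its footprints rose to 3957, 1271 and 2066 reads, against 220 and 351 in WT (log2 difference 2.97, limma adjusted p = 0.0240), while RNA was 13957, 9681 and 13818 against 8830 and 10801. The TE difference of Ftl1, 2.63 ± 0.66, was the highest of all 12933 genes (limma adjusted p = 0.150, edgeR 0.0395; exact permutation p = 0.2, the smallest possible). Ftl1 has close copies in the mouse genome, so its level is uncertain in the same way as those of ribosomal proteins.

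The ferritin heavy chain Fth1, given with Slc40a1, Tfrc and Slc11a2 after values were seen, had a TE of -0.78, -1.90 and -1.73 in Nat1+/- cultures, -3.11, -2.35 and -1.12 in Nat1-/- cultures and -3.35 and -3.01 in WT. Its footprints rose by 1.31 (3108, 1787 and 1737 against 823 and 889 reads; limma adjusted p = 0.0242), and its TE difference of 1.71 ± 0.57 missed the edgeR threshold (adjusted p = 0.0642). In both ferritins A7 was the highest of the Nat1+/- cultures and C3 of the Nat1-/- cultures, at values among those of Nat1+/-. Epas1, the hypoxia-inducible factor HIF-2 alpha, had a TE of 0.59, 0.91 and 0.77 against -1.42 and -0.65 in WT, a difference of 1.79 ± 0.42 (edgeR adjusted p = 0.0395), with footprints up by 1.24 (limma adjusted p = 0.0227). Total RNA of Fth1 and Epas1 differed by -0.40 and -0.55, neither passing limma. The iron exporter Slc40a1 differed by 1.97 ± 0.76 and did not pass, with 21.7, 24.3 and 16.8 footprint reads against 12.4 and 9.68 in WT.

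The 2 list members whose element lies at the other end of the mRNA, where it is known to act on RNA stability, had the smallest differences of the 6. Tfrc, the transferrin receptor, had a TE of -0.28, -0.01 and -0.11 in Nat1+/- cultures and 0.01 and -0.01 in WT, and the iron importer Slc11a2 had -0.46, -0.45 and -0.35 against -0.48 and -0.66. The differences were -0.13 ± 0.12 and 0.15 ± 0.12 (limma adjusted p = 0.560 and 0.510), with groups that overlapped for Tfrc and lay apart for Slc11a2, and total RNA passed for neither.

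**Figure D3:**
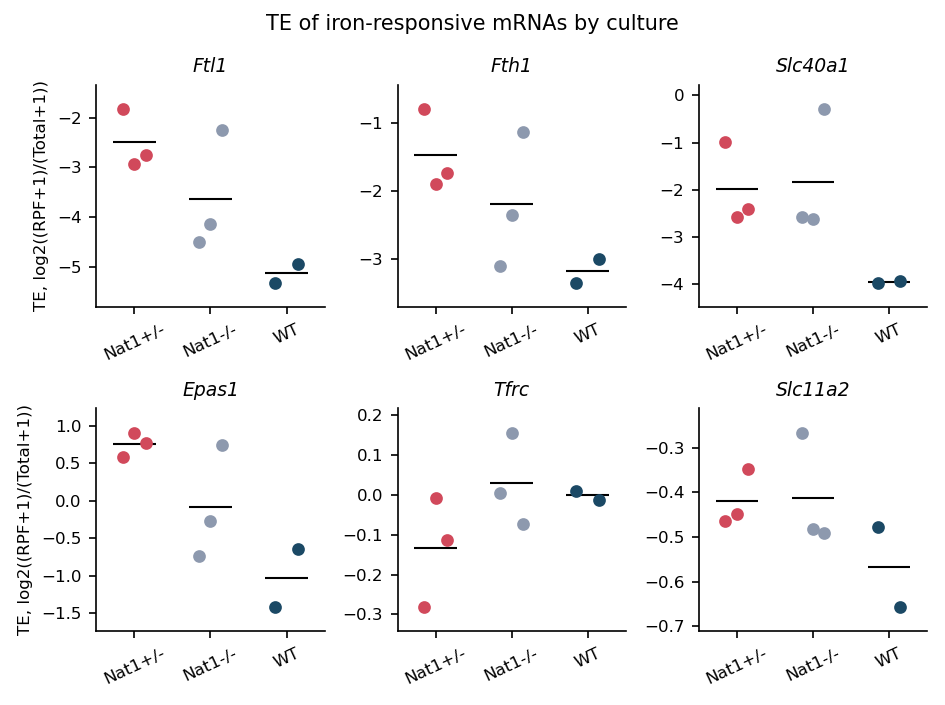
TE (vertical, log2) of 6 iron-responsive mRNAs by culture, with Nat1+/- left, Nat1-/- in the middle and WT right; each point is a culture, bars are means, and each panel has its own scale. For Ftl1, Fth1, Slc40a1 and Epas1 the Nat1+/- points lie clear above the WT points; the Tfrc difference is -0.13 and that of Slc11a2 0.15.

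The RAS and MAP kinase cascade, which carries FGF signals that push stem cells out of the naive state, includes Sos1 and Map3k3, messengers whose translation has been tied to Nat1 in stem cells. Map3k3, the kinase MEKK3, had a TE of -1.72, -1.81 and -1.86 in Nat1+/- cultures, -3.32, -3.47 and -3.14 in Nat1-/- cultures and -2.19 and -2.20 in WT. Sos1, the exchange factor that loads RAS with GTP, had -0.70, -0.56 and -0.87 in Nat1+/-, -2.78, -2.33 and -2.12 in Nat1-/- and -1.31 and -0.92 in WT. Both stood above WT in all 3 Nat1+/- cultures, by 0.40 ± 0.14 and 0.40 ± 0.22 (limma adjusted p = 0.204 and 0.358), and neither passed edgeR. For Map3k3 total RNA differed by -0.73 (limma adjusted p = 0.0272), and footprints were lower too, at -0.33, without passing. For Sos1 footprints differed by 0.29 and total RNA by -0.11, neither passing. The Sos1 difference was 0.21 without WTex1 and 0.59 without WTex2. Of 32 cascade genes, 24 had positive differences, 12 had the groups apart upward (37.5%, against 24.5% of all genes) and 2 downward (6.25%, against 19.3%), and 1 passed edgeR upward (3.12%, against 1.54%). The median was 0.20, and 0.11 without WTex1. That 1 was Spry4, a feedback inhibitor of the cascade, with -0.17, -0.46 and -0.39 against -1.64 and -1.14 in WT and a difference of 1.05 ± 0.23 (edgeR adjusted p = 0.0389). Spry4 footprints differed by 0.19 and its total RNA by -0.86, neither passing limma. The FGF receptor adaptor Frs2 differed by 0.38 ± 0.11 and the kinase Mapk3 by 0.32 ± 0.12, neither passing.

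Reported internal-entry mRNAs of DAP5, the class first tied to this protein, showed no common side, with 4 of 8 differences positive, a median of 0.02 (-0.10 without WTex1 and 0.11 without WTex2) and none passing edgeR. Myc, the growth regulator, had a TE of 2.51, 2.13 and 2.41 in Nat1+/- cultures against 1.71 and 1.80 in WT, a difference of 0.60 ± 0.19 (edgeR adjusted p = 0.0673), while its RNA fell to 86.5, 95.01 and 124.2 reads against 430 and 451. Myc footprints were lower as well, with a difference of -1.52 (limma adjusted p = 0.0535). The apoptosome scaffold Apaf1 differed by 0.26 ± 0.12 and the mitotic kinase Cdk1 by -0.28 ± 0.14 (-0.14 without WTex1). Of 12 histone acetyltransferase and deacetylase genes 7 had the groups apart upward (58.3%, against 24.5% of all genes) and none downward or past edgeR, with a median of 0.22. The coactivator Crebbp had 0.06, 0.00 and 0.02 in Nat1+/- cultures, -2.16, -1.87 and -1.37 in Nat1-/- cultures and -0.78 and -0.54 in WT, a difference from WT of 0.69 ± 0.22 (edgeR adjusted p = 0.0607). Its relative Ep300 differed by 0.54 ± 0.20 (0.36 without WTex1) and the SAGA enzyme Kat2a by 0.34 ± 0.13.

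Naive pluripotency genes, which hold stem cells in the ground state, had a median difference of 0.19. Of 19 genes, 8 had the groups apart upward (42.1%, against 24.5% of all genes), 4 had them apart downward (21.1%, near the 19.3% of all genes) and 2 passed edgeR upward (10.5%, against 1.54%). The median TE level of the list overlapped between groups, at 0.30, 0.35 and 0.44 in Nat1+/- cultures and 0.48 and 0.29 in WT. Klf2, a naive-state factor, had a TE of 1.04, 0.96 and 1.11 in Nat1+/- cultures and 0.54 and 0.65 in WT (difference 0.44 ± 0.10, edgeR adjusted p = 0.0444). Klf2 footprints differed by 0.04 and its total RNA by -0.41, neither passing limma. Tfcp2l1, a LIF-responsive factor, differed by 0.73 ± 0.20 (edgeR adjusted p = 0.0482) on top of RNA that rose by 1.28, so its footprints rose by 2.02 to 8274, 4495 and 7404 reads, against 1267 and 2042 in WT (limma adjusted p = 0.00794). Tbx3 footprints rose by 2.30 (adjusted p = 0.0101), with a TE difference of 0.74 ± 0.20 that did not pass. Of 11 core pluripotency genes 1 passed edgeR, the zinc finger factor Sall4, at 0.57 ± 0.11 (adjusted p = 0.0391), with 0.54, 0.47 and 0.59 against -0.16 and 0.08. Sall4 footprints differed by 0.01 and its total RNA by -0.57, neither passing limma.

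Formative and primed epiblast genes, which stem cells switch on as they leave the naive state, had lower RNA in Nat1+/- cultures, with a median TE difference of 0.19. Total RNA fell in 6 of 13 (5.79% of all genes) and rose in none, and 2 passed edgeR for higher TE, with 4 apart upward (30.8%, against 24.5% of all genes). Pou3f1 had 104, 200 and 136 total RNA reads in Nat1+/- cultures and 1007 and 417 in WT, a fall of 2.19 (limma adjusted p = 0.0145), and a TE of -0.08, -0.18 and -0.18 against -0.95 and -0.87 (0.76 ± 0.11, edgeR adjusted p = 0.0391). For Zic2 RNA fell by 2.53 (adjusted p = 0.00945) and TE differed by 0.84 ± 0.20 (edgeR adjusted p = 0.0395). Neuroectoderm and fibroblast marker sums were lower in Nat1+/- cultures too (1997 to 3617 against 7403 to 8318, and 1318 to 4043 against 6164 to 14278, in footprints), and their part in these values was not tested.

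**Figure D4:**
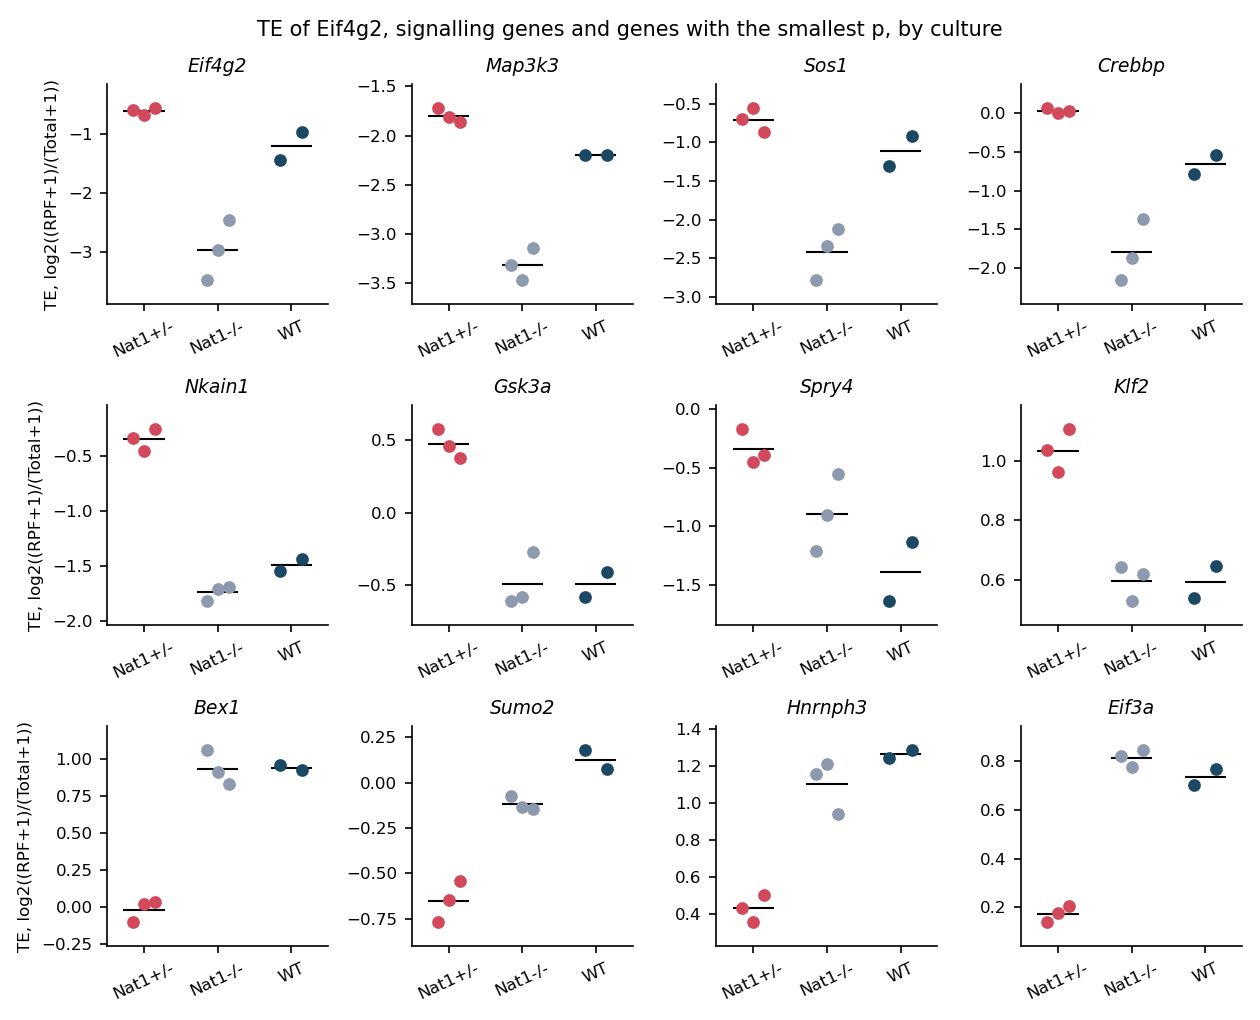
TE (vertical, log2) of 12 genes by culture, with Nat1+/- left, Nat1-/- in the middle and WT right; points are cultures, bars are means, and each panel has its own scale. In Eif4g2, Map3k3, Sos1 and Crebbp the Nat1+/- points lie above WT and the Nat1-/- points below it; in Bex1, Sumo2, Hnrnph3 and Eif3a the Nat1+/- points lie below both other groups.

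Among the genes with the smallest p upward, Nkain1, a partner of the sodium pump, had a TE of -0.34, -0.45 and -0.26 in Nat1+/- cultures and -1.55 and -1.44 in WT. Its footprints were 157, 139 and 183 reads against 176 and 144, and its RNA fell to 199, 190 and 218 reads against 515 and 392 (log2 difference -1.15, limma adjusted p = 0.0358). Footprints that did not pass over RNA that fell were also seen for Gsk3a, a kinase of WNT and insulin signalling (TE difference 0.96 ± 0.14), the synaptic adhesion protein Lrfn1 (1.02 ± 0.13) and the secretory carrier protein Scamp2 (0.71 ± 0.11), with total RNA differences of -0.71, -1.199 and -0.64 (limma adjusted p = 0.0336, 0.0428 and 0.0488). In Nup210, a nuclear pore membrane protein, footprints rose by 0.84 (1749, 1748 and 1670 against 882 and 1048 reads; limma adjusted p = 0.0143) with RNA that did not pass, for a TE difference of 0.69 ± 0.10. Amer1, a WNT regulator that binds APC, differed by 1.03 ± 0.17, the retinoid receptor Rxra by 0.84 ± 0.13, carnitine acetyltransferase Crat by 0.76 ± 0.12 and the host cell factor Hcfc1 by 0.61 ± 0.10. All of these passed edgeR (adjusted p = 0.0258 to 0.0419), while the zinc finger factor Plagl1 (0.70 ± 0.09) and the intramembrane protease Sppl2b (0.72 ± 0.11) did not.

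Downward, Bex1, a small brain-expressed adaptor gene, had a TE of -0.10, 0.02 and 0.03 in Nat1+/- cultures and 0.96 and 0.92 in WT, a difference of -0.96 ± 0.11 (edgeR adjusted p = 0.0152). Its footprints fell to 3122, 4095 and 3685 reads against 7427 and 6826 (limma adjusted p = 0.0333), over RNA of 3354, 4032 and 3606 against 3809 and 3597. Sumo2, a ubiquitin-like modifier, had 4021, 6204 and 5271 footprint reads against 12543 and 11065 and a TE difference of -0.78 ± 0.10 (edgeR adjusted p = 0.0258). Hnrnph3, a splicing regulator, differed by -0.83 ± 0.12 through RNA that rose to 1760, 1693 and 1817 reads, against 795 and 737 in WT (log2 difference 1.196, limma adjusted p = 0.00892), with footprints of 2380, 2169 and 2582 against 1884 and 1798. Bcas1, a myelin-associated gene, differed by -1.09 ± 0.12, Ccdc174 by -0.82 ± 0.10, the vesicle transport protein Sft2d1 by -0.74 ± 0.12, the keratin-binding protein Tchp by -0.73 ± 0.12 and the BRCA2 partner Bccip by -0.62 ± 0.10, and all passed edgeR. The amide hydrolase Faah differed by -0.64 ± 0.10 and did not (edgeR adjusted p = 0.0687).

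Further gene lists had smaller medians, as the plot of list medians shows. Shares in brackets are read against all genes, of which 24.5% had the groups apart upward and 19.3% downward, and 1.54% and 1.07% passed edgeR in those directions. Of 75 nuclear respiratory chain and ATP synthase genes 38 had the groups apart downward (50.7%) and 2 passed edgeR (2.67%), with a median of -0.23; those 2 were the complex I subunits Ndufa5 (-0.50 ± 0.12) and Ndufb10 (-0.83 ± 0.21, and -0.55 without WTex1). Of 31 proteasome subunits 21 were apart downward (67.7%) and 2 passed (6.45%), Psma3 (-0.51 ± 0.11) and Psma5 (-0.55 ± 0.13), with a median of -0.21. All 7 CCT chaperonin genes had negative differences, 6 with the groups apart (85.7%), a median of -0.30 and none past edgeR. Mitochondrial ribosomal proteins had a median of -0.17, with 31 of 76 apart downward (40.8%) and Mrps10 (-0.65 ± 0.17) passing. Replication-dependent histone genes, whose mRNAs end in a stem-loop in place of a poly(A) tail, had a median of -0.49 with none of 60 past edgeR and 24 apart downward (40%), and the median was -0.07 without WTex1 and -0.86 without WTex2. Without WTex1 the medians were -0.05 for the respiratory chain, -0.13 for the proteasome and -0.05 for mitochondrial ribosomal proteins, and without WTex2 -0.42, -0.31 and -0.27. Zfp zinc finger genes had a median of 0.16 over 332 genes (0.07 without WTex1 and 0.25 without WTex2), 114 apart upward (34.3%) and 24 downward (7.23%), and 12 (3.61%) and 2 (0.602%) past edgeR, among them Zfp385a (1.65 ± 0.30), Zfp687 (0.92 ± 0.19) and Zfp330 (-0.48 ± 0.10).

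**Figure D5:**
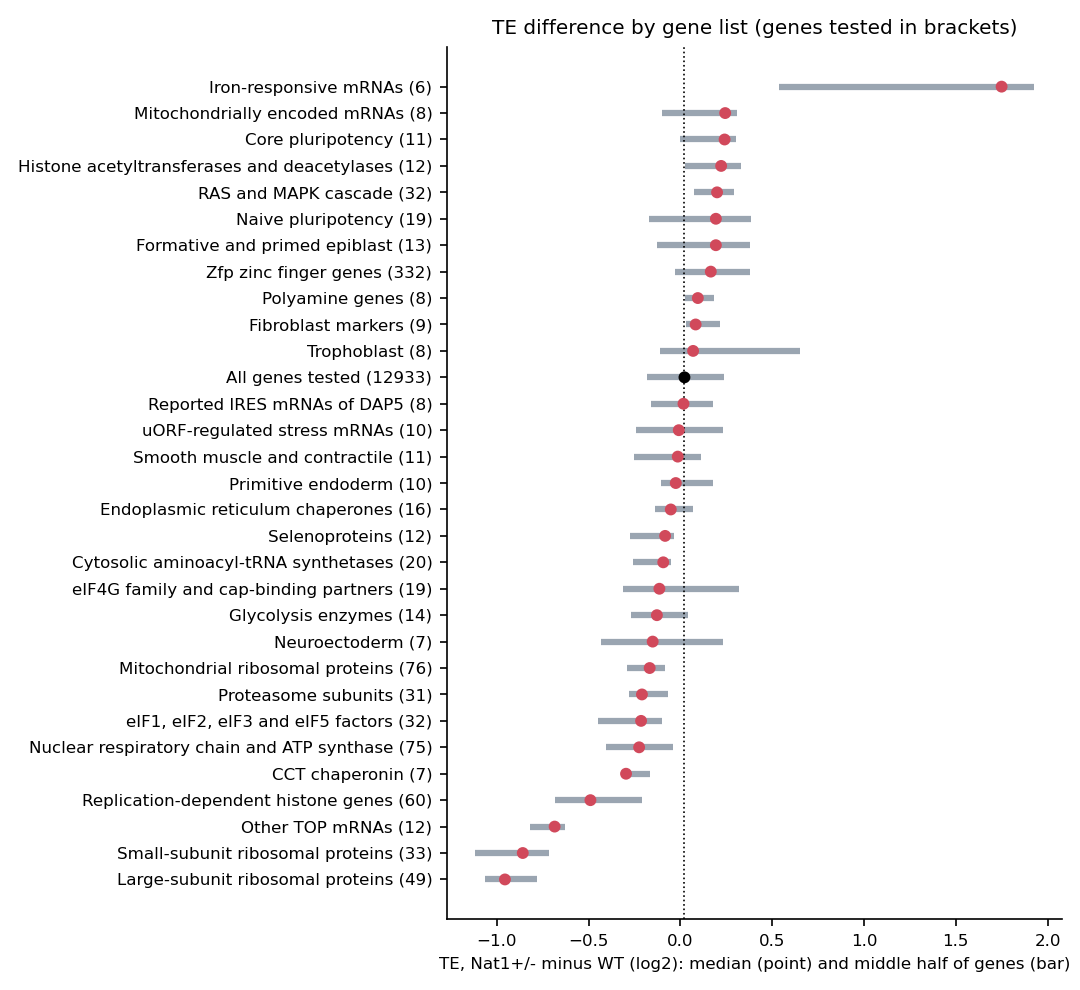
Median TE difference of each gene list (point; log2, Nat1+/- minus WT) with the span between its quartiles (bar), the number of genes tested in brackets and the median of all 12933 genes as a dotted line. Ribosomal protein and other TOP lists lie lowest, at -0.96, -0.86 and -0.69, and the iron-responsive list highest, at 1.75.

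Several lists held no gene past edgeR or showed no common side. Cytosolic aminoacyl-tRNA synthetases (median -0.09), endoplasmic reticulum chaperones (-0.05), selenoproteins (-0.08), polyamine genes (0.09), primitive endoderm (-0.03), trophoblast (0.07) and neuroectoderm genes (-0.15) had none called. The groups were apart downward for 50% of the synthetases, 41.7% of selenoproteins and 42.9% of neuroectoderm genes, against 19.3% of all genes. Upward they were apart for 50% of trophoblast and 30% of primitive endoderm genes, against 24.5% of all genes. For chaperones the shares were 18.8% each way, and for polyamine genes 12.5% each way. Of 14 glycolysis enzymes 10 had negative differences, with a median of -0.13, 28.6% apart downward and 7.14% upward. The 1 that passed edgeR, Pgam1, went upward at 0.69 ± 0.16 (7.14%, against 1.54% of all genes). Of 10 stress mRNAs with upstream reading frames (median -0.01, 20% apart upward and 30% downward) 1 passed upward, the arginine transporter Slc7a1, at 0.54 ± 0.13 (10%, against 1.54%). Among 8 mitochondrially encoded mRNAs mt-Nd6, a complex I subunit encoded on the other strand from most genes of that genome, passed downward (-1.29 ± 0.37, edgeR adjusted p = 0.0470), and how strand was counted is not stated in the labels. The median TE of these 8 was -1.02, 0.70 and -0.15 in the Nat1+/- cultures (A7, B4 and C1) against -0.28 and -0.42 in WT, a spread among Nat1+/- cultures wider than the gap to WT.

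Fibroblast and contractile genes differed far more in level than in TE. For 9 fibroblast markers the median difference was -3.13 in footprints and -3.38 in total RNA, but 0.08 in TE, with 1 gene, the matrix protein Thbs1, past edgeR (0.53 ± 0.18). For 11 contractile genes the medians were -2.16, -1.55 and -0.01, and the tropomyosins Tpm1 and Tpm2 passed edgeR downward (-0.62 ± 0.11 and -0.70 ± 0.15). Tpm1 TE was 0.07, 0.24 and 0.05 in Nat1+/- cultures, -0.06, -0.10 and -0.28 in Nat1-/- cultures and 0.80 and 0.67 in WT. Its footprints fell to 2459, 4506 and 2237 reads, against 14200 and 11984 in WT (limma adjusted p = 0.00660). These genes moved with the contractile marker sums given above, and what part other cells had in their TE was not tested.

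The TE difference also ran with the level of TE itself. With genes sorted into 5 classes of equal size by mean TE over the 8 cultures, the median difference was 0.12 in the lowest class and -0.08 in the highest. The share of genes with the groups apart upward was 32.05% in the lowest of the 5 classes and 16.1% in the highest, and downward 12.6% and 29.3%. Sorted by total RNA level, the medians of the 5 classes lay between 0.01 and 0.04. The share apart upward was 14.7% in the lowest of these classes, 29.9% in class 4 and 28.4% in the highest. Downward it was 14.65%, 20.1% and 27.6% in the same order. The median TE of all genes was close in both genotypes, -0.36 in Nat1+/- and -0.39 in WT.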

How the data were processed

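RPF and total RNA libraries came from the same cultures, and groups were taken from the labels. The deposited values are a signal, reads per gene that the authors scaled by 1 DESeq2 factor for each library, per the submitters' processing notes. TopHat2 2.1.0, Bowtie2 2.2.8, HTSeq 0.6.1, cutadapt 1.9.1 and bcl2fastq 2.17 and the builds mm10 and GRCm38.p4 are named there too. Multiplying by one factor per library gave whole reads (tolerance 0.001) for 100% of values. The factors equal median-of-ratios factors within each assay, so no change common to most genes can show. Of the names in the file, 27 were dates and 2 repeated.

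TE per culture was fitted with limma 3.58.1 (R 4.3.3, eBayes with trend) over 8 cultures with 3 genotype means, two-sided, with Benjamini-Hochberg adjustment over 12933 genes and a threshold of 0.05. The same fit was made for log2(value + 1) of each assay; fold changes on that scale understate changes of low genes. Recovered reads were tested with edgeR 4.0.16 (quasi-likelihood, culture as a term) and DESeq2 1.42.0. The scripts were tested on simulated data. The labels give both libraries of a culture the same name, and deviations from the genotype mean correlated across genes between them (r = 0.384 to 0.821, each of the 8 with its own partner best). No replicate pair was as close as counting error alone would give (chi-square over its degrees of freedom, 14.4 to 129). They are separate cultures only as far as the labels say, so p-values measure the spread between these samples.

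Named genes are Eif4g2, Map3k3 and Sos1, the 12 genes of smallest p in each direction with separate groups and a mean of at least 50 (predicted genes passed over, none past limma), and up to 3 of smallest p per list; others are marked in the text. The members and lists were chosen with earlier results of these data known. Of the genes listed, 2 are not reported here and were left out of their lists. Alternatives were other filters, pseudocounts of 0.5 and 5, scaling, thinned reads, blocks and leaving out each culture. Protein features were not used here.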

Additional observations from a re-analysis of the deposited data

How the results depend on the processing

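No limma TE call was made with pseudocounts of 0.5 or 5, equal library sums, centred cultures, thinned reads, other variance settings or the 5 cultures alone. With a mean of at least 50, or with no filter, 3 genes were called. edgeR called 338 with the culture term and 0 without it (no replicate block), and DESeq2 called 11 of the 4157 genes to which it gave an adjusted p. The following were chosen after seeing the data: a variance trend on abundance called 146, or 141 with thinned reads, 504 with equal sums (416 higher and 88 lower, against 90 and 56) and 1422 in the 5 cultures alone, and edgeR on each assay gave 1391 footprint and 1489 total RNA calls. With 1 culture left out, TE calls ran from 0 to 1325 in edgeR (3, 244 and 1129 between) and from 0 to 1049 under the abundance trend (1, 3 and 1029 between), footprint calls from 0 to 2664 and total RNA calls from 0 to 2818. In the 5 cultures alone footprint and total RNA calls were 2663 and 2777. The cause was not tested. Where an arm kept 1 culture, that culture was assumed to vary like the other groups. Equal sums turned the genes at an unadjusted p under 0.05 to 2070 higher and 682 lower and the median of all genes to 0.09.

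Of the named genes' TE differences, 2592 values under an alternative kept direction and call, 94 newly passed and 1 reversed: mt-Nd5, at -0.022 without Nat1+/- replicate 2 (-0.022 to 0.73 with 1 culture left out). Replicate numbers shared by Nat1+/- and WT did not pair the cultures (r = 0.03 and 0.07). Between Nat1-/- and WT, r was 0.36 for replicate 1 (B12 and WTex1) and 0.15 for replicate 2 (B2 and WTex2). Between Nat1-/- and Nat1+/- it was -0.01, 0.10 and -0.02 for replicates 1, 2 and 3. The main fit took all these cultures as independent. With the replicate number as a block limma called 0 genes, and over 16 libraries with no replicate block it called 0. Of the list medians under alternatives, 581 stayed within the spread between cultures and 70 did not. Total RNA depth limits what low genes show, since a count of 0 allows 1.38 to 4.90 normalised reads per library.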
